A study of Mus musculus with 6 samples.

Results

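The aim was to examine where loss of Tet1 goes along with less 5-hydroxymethylcytosine (5hmC) relative to other regions. For this, the autosomal regions with lower scaled counts in both knockout libraries were collected. Of 192196 regions in the count table, 189495 lay on the 19 autosomes, and 755 met the rule. For the rule, the 25 autosomal regions of highest mean count were set aside, and each library was scaled to counts per 1e6 (CPM) of the remaining 189470 regions. A region was taken when the lower wild-type (WT) CPM was at least 2 times the higher knockout (KO) CPM and both WT libraries had 20 or more raw counts. The genotype values themselves chose these regions, so their difference between KO and WT is given as a description, without a test.

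5hmC is made when Tet enzymes (Tet1, Tet2 and Tet3) oxidize 5-methylcytosine in DNA. It is abundant in brain DNA, where it is found in gene bodies and at regulatory elements, and it can be a stable mark or a step toward loss of methylation. Because Tet2 and Tet3 make the same base, a cell without Tet1 can still carry 5hmC.

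The labels describe brain DNA from Tet1 KO and Tet1 WT mice, with 2 libraries of enriched 5hmC DNA per genotype (sample 1 and sample 2 of each). The study itself describes a constitutive deletion of Tet1 in every cell. It names WT and Tet1 KO astrocytes as the source of its 5hmC profiles, and describes astrocytes cultured from the cortex and hippocampus of newborn pups. The labels name brain instead, and this difference cannot be settled from the sources used here. Age, sex and the number of animals behind a library are not given in the labels. Nothing says that the libraries of a genotype came from separate animals or cultures, so the spread between them may be technical. The 2 input libraries were not analysed here. Neither the deletion in Tet1 nor cell type markers could be checked, because no gene annotation of the build of the table was used, and for the same reason no region is assigned to a gene and no sequence is shown.

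The total count ranged from 16819455 to 19288900 per library. The 25 regions set aside held 11.6% and 36.7% of autosomal counts in KO samples 1 and 2, and 17.9% and 34.3% in WT samples 1 and 2. The share was thus higher in both libraries numbered 2, in either genotype. What remained ranged from 11921429 counts (KO sample 2) up to 15284169 (KO sample 1). A count of 3, taken as the floor of detection, was worth from 0.196 CPM (KO sample 1) up to 0.252 CPM (KO sample 2).

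To see how many regions the same limits collect when genotype does not define the groups, the count was repeated for the crossed split, in which KO sample 1 and WT sample 2 stand against KO sample 2 and WT sample 1. The 755 regions lower in KO were 0.512% of the 147369 autosomal regions with 20 or more counts in both WT libraries. In the crossed split, 742 regions were low in KO sample 2 and WT sample 1, or 0.498% of 149073 regions with enough counts on the high side. On the other side of the crossed split, 257 regions were low in KO sample 1 and WT sample 2, or 0.195% of 132123. The genotype split in the other direction gave 621 regions higher in KO, or 0.465% of 133495. The number of regions lower in KO therefore stood 13 above the larger side of the crossed split. That order turned when no region was set aside before scaling, with 470 regions lower in KO and 610 in the crossed split. It also turned at a limit of 1.5-fold, with 3605 lower in KO and 3622 in the crossed split.

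The counts parted only at higher read depth. Among regions with 20 to 29 counts in the smaller of the high libraries, 218 of 29296 were lower in KO (0.744%, 95% Wilson interval 0.652 to 0.849), and 249 of 28815 were on the larger crossed side (0.864%, 0.764 to 0.978). With 30 to 49 counts the shares were 0.804% (0.724 to 0.892, 349 regions) and 0.867% (0.785 to 0.957, 385 regions). The intervals of these lists overlapped in both ranges. With 50 to 99 counts the shares were 0.372% (0.319 to 0.434, 162 regions) and 0.230% (0.190 to 0.279, 103 regions). With 100 or more counts, 26 of 31149 regions were lower in KO (0.083%, 0.057 to 0.122), against 5 of 31085 (0.016%, 0.007 to 0.038) and 1 of 27869 on the sides of the crossed split. Regions higher in KO numbered 34 of 28449 at that depth (0.120%, 0.086 to 0.167). In the lower ranges of depth, in rising order, their shares were 0.460%, 0.729% and 0.457%. These intervals cover counting error only, and regions of the same libraries are not independent replicates.

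**Figure D1:**
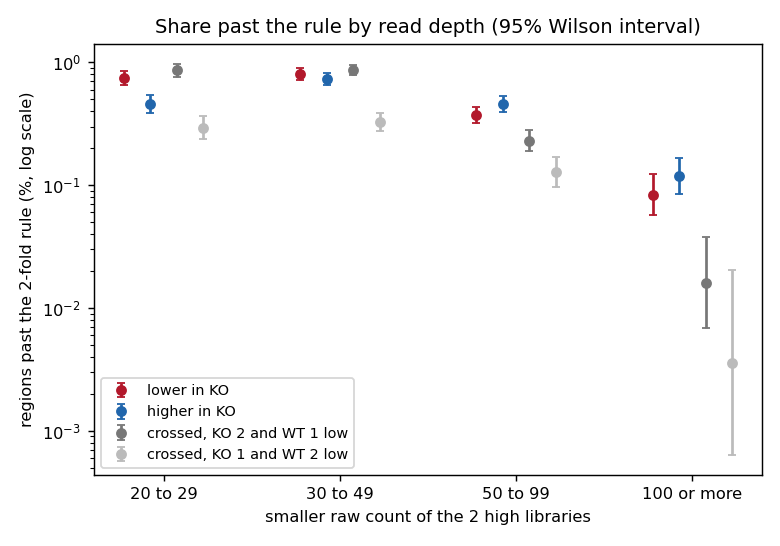
Share of autosomal regions past the 2-fold rule (%, log axis) by the smaller raw count of the 2 high libraries, for both directions of the genotype split and both sides of the crossed split, with 95% Wilson intervals. At 20 to 29 counts the regions lower in KO lie below the larger crossed side, with overlapping intervals. At 100 or more counts they lie above both crossed sides (26 regions against 5 and 1).

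The eligible regions above differ between splits, because the count limit is set on the high side. With the same regions used for every split, chosen by a mean count over the 4 libraries in place of that limit, 328 of 138651 regions with a mean of 30 or more were lower in KO and 245 were on the larger crossed side. With a mean of 60 or more these were 55 and 19 of 72513 regions, and with a mean of 100 or more they were 13 and 1 of 37695. The corresponding numbers higher in KO were 314, 62 and 19. This limit was chosen after the counts were seen.

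The 755 regions were weak in both genotypes. Across them the CPM in KO sample 1 had a median of 1.11 (from 0.131 to 7.13), and in KO sample 2 a median of 1.01 (from 0 to 8.14). In WT sample 1 the median was 3.14 (from 1.46 to 19.03), and in WT sample 2 it was 3.25 (from 1.59 to 21.3). Both WT medians were below those of all 147369 eligible regions, which were 4.45 and 4.44 CPM in the same libraries. In raw counts the members had medians of 17 and 12 in KO samples 1 and 2, and of 43 and 41 in WT samples 1 and 2. Their summed level was 2768 and 2853 CPM in WT samples 1 and 2, and 1003 and 863 CPM in KO samples 1 and 2. Only 13 members reached 10 CPM in both WT libraries.

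**Figure D2:**
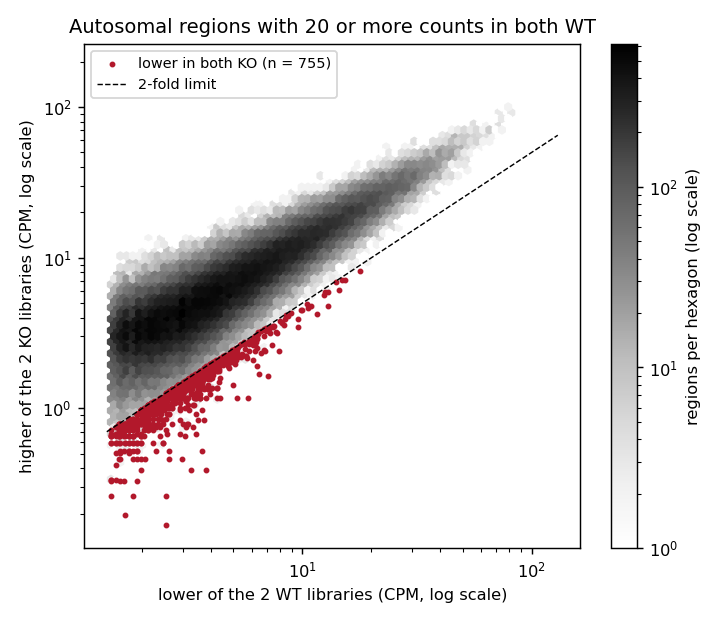
Higher KO level against lower WT level (CPM, both axes logarithmic) for the autosomal regions with 20 or more counts in both WT libraries, shaded by number of regions, with the 755 regions lower in both KO libraries in red and the 2-fold limit dashed. The members adjoin the edge of the main cloud without a gap, mostly at low WT levels.

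The size of the decrease was set from below by the rule. The median ratio of the lower WT to the higher KO level was 2.25, and 203 members (26.9%) reached 2.5, 92 (12.2%) reached 3, 36 reached 4 and 15 reached 5. On the larger crossed side, 204 of 742 regions reached 2.5 (27.5%), 76 reached 3 (10.2%) and 8 reached 5 (1.08%). On the smaller crossed side, 45 of 257 reached 2.5 (17.5%), 12 reached 3 (4.67%) and 0 reached 5. Of the 621 regions higher in KO, 217 reached 2.5 (34.9%), 96 reached 3 (15.5%) and 17 reached 5 (2.74%). Comparing means, WT exceeded KO by a median of 3.02-fold. On a log2 scale with 0.5 CPM added, the median ratio of KO to WT was -1.11 between the libraries numbered 1 and -1.31 between those numbered 2, where all eligible regions had medians of 0.00 and -0.09. KO sample 2 was below KO sample 1 in 485 of the 755 members (64.2%), and in 53.8% of all eligible regions.

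The pairs of libraries lay closer together in the members than in all eligible regions, which the rule itself favors. The SD divided by the mean had a median of 0.191 between KO libraries and 0.108 between WT libraries in the members, and of 0.279 and 0.149 in all eligible regions. The rule asks both libraries of a genotype to lie on one side, and so picks regions with close pairs. The same values were not computed for the crossed split, so no trait of the members is drawn from this closeness. The exact 95% Poisson intervals of both WT values lay above those of both KO values in 420 members (55.6%). The corresponding shares were 46.5% on the larger crossed side, 43.6% on the smaller (112 of 257) and 61.2% among regions higher in KO (380 of 621). Each of these lists was picked by the same 2-fold rule from the same counts. The share over all eligible regions was not computed, so the 420 are a description without that background. In the remaining 335 members the depth did not separate the libraries of the genotypes nearest to each other.

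Members stood in a continuum at both limits. The ratio lay between 2 and 2.1 in 189 members, and 236 further regions with enough counts had ratios from 1.9 up to 2. Just inside, the region chr6:99293833-99294463 had 49 and 28 counts in KO and 88 and 87 in WT, with a ratio of 2.002. Just outside, chr1:174443065-174443381 had 34 and 14 counts in KO and 61 and 71 in WT. At the count limit, 23 members had exactly 20 counts in the lower WT library, and 17 regions met the fold with 19. A further 2903 regions met the fold below the count limit, those with 19 counts included.

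Next, the test across all regions was set beside the members. By the quasi-likelihood test of edgeR, with Benjamini-Hochberg adjustment over 176957 tested regions, 0 regions (0%) were lower in KO at adjusted p under 0.05. All 755 members were among the tested regions, and 0 of them passed. At unadjusted p under 0.05, 543 members were lower in KO, and 1.27% of all tested regions were. DESeq2 also called 0 members, with 493 lower in KO at unadjusted p under 0.05, where 0.784% of all 191920 regions in that fit were. Without KO sample 1, edgeR called 227 members lower in KO and 3.46% of all tested regions. Without KO sample 2 it called 74 members and 0.837% of all tested regions. The spread in both fits comes from the WT pair alone. Since the rule used this contrast, the 543 show only how the rule and the test overlap. With 2 libraries against 2, an exact permutation test of a single region cannot give a two-sided p below 0.333.

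The 6 members with the largest ratio had from 0 to 18 counts in the KO libraries. At chr15:3514080-3514490 (411 bp) the KO libraries had 6 and 0 counts and the WT libraries 52 and 48. Scaled, KO averaged 0.196 ± 0.278 CPM and WT 3.799 ± 0.0099 CPM (SD, n = 2 per genotype). The edgeR fit gave a log2 fold change of -4.11 (standard error 0.94). The exact intervals of the KO values reached up to 0.854 CPM in sample 1 and 0.309 CPM in sample 2. Those of the WT values began at 2.83 and 2.81 CPM in samples 1 and 2. The intervals thus lay apart, in a region that was picked for its large ratio.

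At chr11:70737737-70737984 (248 bp) both KO libraries had 2 counts and the WT libraries had 37 and 32, that is, 0.149 ± 0.026 CPM against 2.62 ± 0.114 CPM (SD, n = 2 each). At chr10:3690511-3690759 (249 bp) the counts were 4 and 1 in KO and 36 and 32 in WT. The WT pair agreed within 0.062 CPM (SD) in the latter region, while both KO values were at or near the floor of 3 counts. Besides the region on chromosome 11, only chr3:7198445-7198660 (216 bp) had 3 counts or fewer in both KO libraries, with 3 and 2 counts in KO and 23 and 36 in WT.

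At chr9:45725755-45726121 (367 bp) KO had 8 and 4 counts and WT had 50 and 48. At chr19:43138238-43138669 (432 bp) KO had 18 and 12 counts and WT had 83 and 73, or 1.09 ± 0.121 CPM against 5.92 ± 0.187 CPM (SD, n = 2 each). The chromosome 19 region had the highest WT level of the 6 members of largest ratio. The edgeR log2 fold change there was -2.41 (standard error 0.52). The last of these 6 members, on chromosome 9, was also the widest of all and is described further on. The adjusted p by edgeR was 1.00 in each of the 6.

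**Figure D3:**
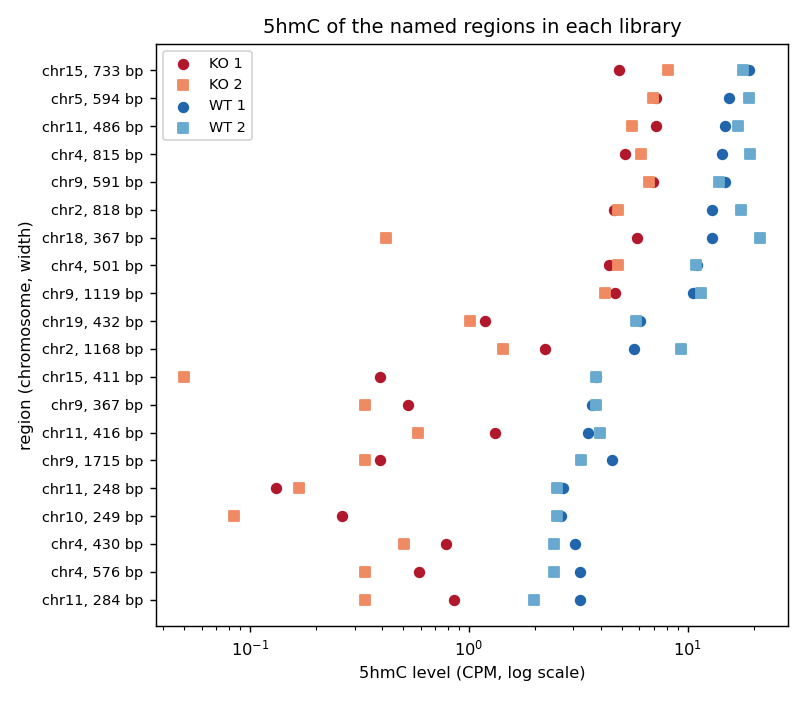
5hmC level (CPM, log axis) in each of the 4 libraries for 20 of the members described in the text, labelled by chromosome and width and ordered by the lower WT level, with a count of 0 drawn at 0.05 CPM. Blue WT points lie to the right of red KO points in all 20, as the rule requires, and the KO libraries part most in the 367 bp region of chromosome 18.

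The members of highest WT level come next. At chr15:25475744-25476476 (733 bp), the strongest, KO had 74 and 97 counts and WT had 261 and 225, which was 6.49 ± 2.33 CPM against 18.4 ± 0.843 CPM (SD, n = 2 each). The edgeR log2 fold change there was -1.48 (standard error 0.35). At chr5:116882637-116883230 the KO libraries had 109 and 83 counts against 211 and 241 for WT. At chr11:80524774-80525259 these were 109 and 66 against 203 and 214. In these 3 regions WT exceeded KO by 2.84-fold, 2.45-fold and 2.51-fold, and the genotypes did not overlap, as the rule requires of every member.

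At chr4:128901219-128902033 KO had 79 and 73 counts and WT had 197 and 242. At chr9:43080142-43080732 the values were 106 and 79 against 202 and 176, the smallest decrease among the strong members, with a fold of 2.12. At chr2:172873200-172874017 there were 70 and 57 counts in KO and 177 and 222 in WT. In all 3 the KO libraries lay close together, with SDs between 0.142 and 0.675 CPM.

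The region chr18:7320136-7320502 stood apart from the other strong members. It had 90 counts in KO sample 1 but 5 in KO sample 2, that is, 5.89 and 0.419 CPM, and 12.9 and 21.3 CPM in WT samples 1 and 2. The KO libraries here differed from each other by more than KO sample 1 differed from WT sample 1 on a ratio scale. The log2 fold change by edgeR was -2.41, and it was -1.57 without KO sample 2 and -5.23 without KO sample 1.

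The regions lower in KO were narrow. Their median width was 314 bp (quartiles 269 and 400 bp), against 516 bp (371 and 772 bp) for all eligible regions. None was wider than 2 kb, although 1.52% of eligible regions were, and 4 members (0.530%) exceeded 1 kb against 13.9% of eligible regions. The larger crossed side had a median width of 306 bp and the regions higher in KO had 359 bp, so narrowness was shared with regions collected without regard to genotype. The mean count per kb had a median of 88.5 in the members, 82.7 on the larger crossed side and 116 in all eligible regions. Width and count are linked in these data, and whether width bears on the decrease was not tested.

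Among the widest members, chr9:123832597-123834311 (1715 bp) had 6 and 4 counts in KO and 62 and 41 in WT, with levels of 0.364 ± 0.040 CPM against 3.89 ± 0.898 CPM (SD, n = 2 each) and a log2 fold change of -3.36 (standard error 0.74). The last region of the table on this chromosome ended at 124047429, so it lies toward the far end. A region at a gap of 9588 bp, chr9:123843900-123844486, had 2 and 2 counts in KO and 55 and 19 in WT, and missed the count limit by 1 count. Between them, chr9:123841149-123841543 had 9 and 4 counts in KO and 32 and 7 in WT, where WT sample 2 was below KO sample 1 in CPM. WT sample 1 was above WT sample 2 in all 3 of these regions.

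The other wide members were chr2:180394106-180395273 (1168 bp), with 34 and 17 counts in KO and 78 and 118 in WT, and chr9:67547068-67548186 (1119 bp), with 71 and 50 against 145 and 145. In the latter, KO averaged 4.42 ± 0.319 CPM and WT 11.0 ± 0.653 CPM (SD, n = 2 per genotype). The WT excess was 4.12-fold and 2.497-fold in these regions, without overlap of the genotypes, as the rule requires.

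Members were found on every autosome, from 18 on chromosome 19 to 64 on chromosome 2. As a share of eligible regions, they ranged from 0.350% on chromosome 14 (0.229 to 0.534, 21 regions) to 0.654% on chromosome 16 (0.470 to 0.908, 35 regions) and 0.647% on chromosome 5 (0.501 to 0.836, 58 regions). The Wilson intervals of these 3 chromosomes overlapped. On chromosome 10, which carries Tet1, 38 of 7656 eligible regions were members (0.496%). The share lower in KO was above that of the larger crossed side on 11 of 19 chromosomes. In the last 5 Mb covered on each chromosome lay 28 members (3.71%), and 4.59% of eligible regions. In the first 5 Mb lay 21 members (2.78%), and 3.02% of eligible regions.

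**Figure D4:**
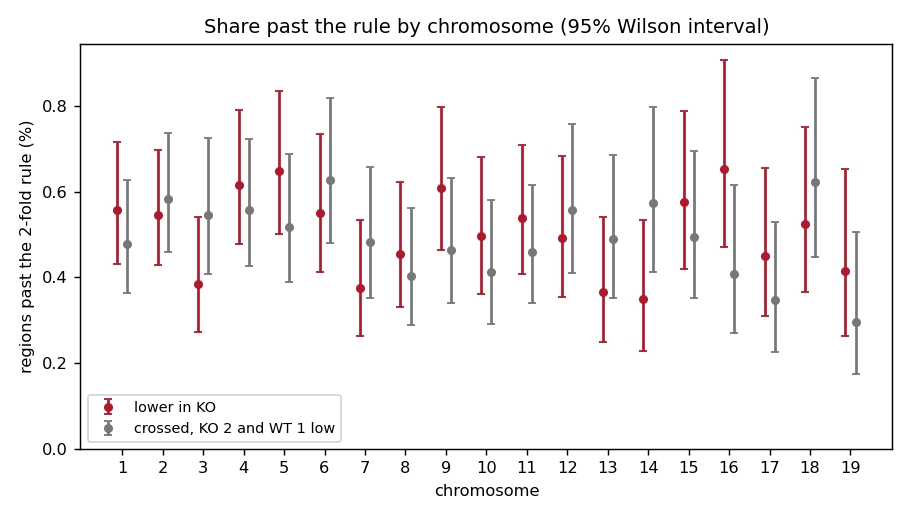
Share of eligible autosomal regions past the 2-fold rule (%) on each chromosome, for regions lower in both KO libraries and for the larger side of the crossed split, with 95% Wilson intervals. Shares lower in KO run from 0.350% on chromosome 14 to 0.654% on chromosome 16, and the intervals of the 2 lists overlap on every chromosome.

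Most members were isolated from each other. With a limit of 50 kb between neighbors, 692 members stood alone, 27 pairs were found, and 3 runs held 3 members each. The gap to the nearest region of any kind had a median of 2484 bp in the members, 2084 bp on the larger crossed side and 1492 bp in all eligible regions. In 13 members (1.72%) no other region lay within 50 kb, against 0.579% of eligible regions. The share was 0.943% on the larger crossed side and 1.13% among regions higher in KO.

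At a closer distance, 22 members (2.91%, Wilson interval 1.93 to 4.37) had another member within 10 kb. The crossed split gave 4 of 742 (0.539%, 0.210 to 1.38) and 0 of 257 (Wilson upper bound 1.47%). Regions higher in KO gave 18 of 621 (2.90%, 1.84 to 4.54). The 22 members formed 11 pairs on 7 chromosomes, at gaps from 192 to 7606 bp. Both members of a pair enter the count, so members are not independent and these Wilson intervals are too narrow. The lists also differ in size, which bears on how often their regions fall close together. The same share for regions picked by the count limit alone was not computed, and whether closeness differs between the splits was not tested. With a limit of 50 kb the shares were 8.34% for the members and 6.60% for the larger crossed side. Of the members, 25 (3.31%) had a region higher in KO within 50 kb. Among the 164935 regions used for the neighbor comparison further on, 445 lay under 2 kb from a region higher in KO. A further 1317 lay at 2 to 10 kb and 5840 at 10 to 50 kb. The number of such members is therefore a description, and no closeness between the directions is drawn from it.

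The shortest run of 3 members lay on chromosome 4, from 41740502 to 41791950. At chr4:41740502-41741077 KO had 9 and 4 counts and WT had 44 and 31, and at chr4:41791521-41791950 KO had 12 and 6 and WT had 42 and 31. The middle member, chr4:41761518-41762018, was stronger, with 67 and 57 counts in KO and 151 and 137 in WT, or 4.58 ± 0.281 CPM against 10.9 ± 0.105 CPM (SD, n = 2 each). In 2 of the 3 other regions inside this run, both WT libraries also lay above both KO libraries. In the remaining one, chr4:41755596-41756265, the levels were 18.8 and 11.5 CPM in KO and 14.7 and 17.0 CPM in WT, so the genotypes overlapped. The share of all regions with both WT libraries above both KO libraries was not computed. This count and those for the runs below are therefore descriptions without a background.

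A second run lay on chromosome 11, from 70681427 to 70737984. It began with chr11:70681427-70681710, with 13 and 4 counts in KO and 44 and 25 in WT, and went on with chr11:70721203-70721618, with 20 and 7 against 48 and 50. It ended with the region of 2 and 2 counts in KO described above. Of the 7 other regions inside this run, 3 had both WT libraries above both KO libraries, and 0 had the opposite order. The decrease was therefore not shared by all regions between the members.

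The longest run of 3 members lay on chromosome 10, from 95752398 to 95834028. It began with chr10:95752398-95752649, with 11 and 3 counts in KO and 42 and 22 in WT. The middle member, chr10:95800434-95800853, had 27 and 26 against 74 and 89, and the last, chr10:95833646-95834028, had 23 and 11 against 50 and 52. Of the 9 other regions inside this run, 4 had both WT libraries above both KO libraries and 1 had the opposite order. The region of opposite order, chr10:95771497-95771800, had 32 and 33 counts in KO and 21 and 18 in WT, and was picked out after its values were seen.

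Regions next to members were then examined, to see how far lower counts extended. Among 403 regions with a mean count of 20 or more at a gap under 2 kb, the median log2 ratio of KO to WT was -0.09, and 58.6% were below 0. It was -0.04 at 2 to 10 kb (1377 regions) and -0.01 at 10 to 50 kb (6217 regions), and the median over all such regions was 0.00. Regions of a list that lay near another of the same list were themselves counted. They numbered 4, 15 and 29 at these distances for the members, and 2, 2 and 38 for the larger crossed side. Around the larger crossed side, the ratio of its low to its high libraries was -0.17 under 2 kb (456 regions, 64.7% below 0) and -0.10 at 2 to 10 kb, against -0.03 over all regions. The shift next to members was thus not larger than that next to regions of the crossed split.

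**Figure D5:**
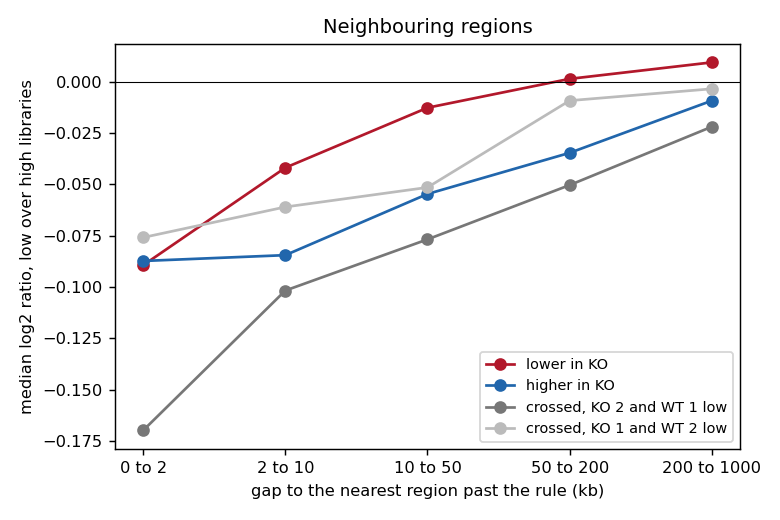
Median log2 ratio of low to high libraries (0.5 CPM added) in regions near those past the rule, by gap in kb, for both directions of the genotype split and both sides of the crossed split. Near regions lower in KO the median goes from -0.09 under 2 kb to 0.00 at 50 to 200 kb, and near the larger crossed side it goes from -0.17 to -0.05.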

How the data were processed

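The authors deposited raw read counts per genomic region, as whole numbers, for 1 shared list of regions in 4 libraries of 5hmC-enriched DNA. DNA carrying 5hmC was labelled chemically through an azide-modified sugar, linked to biotin and captured before sequencing. The submitters' processing notes name Bowtie2 2.2.6 and mm9. The program that called the regions, duplicate removal and the handling of reads with several matches are not given in the sources used here, and such reads can inflate repeated sequence. Regions on 9 of 22 chromosomes ended beyond GRCm38 chromosome ends, so the GRCm38 reference was not used, and coordinates are printed as in the table.

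Counts were scaled as stated in the report. Tests across regions used filterByExpr, TMM scaling and edgeR (version 4.0.16, R 4.3.3) with its quasi-likelihood test on all chromosomes (2 residual degrees of freedom), checked on simulated counts. Standard errors are the log2 fold change divided by the square root of the F statistic. DESeq2 1.42.0 was an alternative. Intervals of shares are Wilson intervals at 95%, those of counts are exact Poisson intervals, and both cover counting error only. Named regions were the 6 of largest ratio (0.5 CPM added), the 6 of highest lower-WT CPM with ties kept, all members of the 2 runs with most members (the shorter where tied), the 3 widest, and those nearest each limit. The third run and the surroundings of the widest member were looked at after values were seen. The members and lists were chosen with earlier results of these data known. Depth per library is given in the report.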

Additional observations from a re-analysis of the deposited data

How the results depend on the processing

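The number of regions lower in KO was 470 when no region was set aside, 3605 at 1.5-fold, 92 at 3-fold, 188 with 50 counts or more, 26 with 100 or more, and 328, 55 and 13 with a mean count of 30, 60 and 100 or more. In the same order from 1.5-fold on, the larger crossed side gave 3622, 76, 108, 5, 245, 19 and 1, and the smaller gave 1681, 12, 49, 1, 108, 6 and 0. With TMM factors the genotype split gave 697 and the crossed split 636 and 301. Leaving out a library gave from 2679 regions (without WT sample 2) to 15287 (without KO sample 1). In each case only 1 library then stands for a genotype. The largest number came with KO sample 2 alone for KO, and why was not tested. The mean count limits were chosen after seeing the data.

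Of the members, 0 passed edgeR's adjusted threshold, with 543 at unadjusted p under 0.05. It stayed 0 with DESeq2, total-count scaling, autosomes only, no low-count filter and a mean count of at least 20, which left 617 members in the test. Entering the sample number as replicate block, 14 passed (1.85% of members), where 53 of all 176957 tested regions were called lower in KO (0.0300%). The labels do not say that a number marks a shared litter or batch, and deviations of same-numbered libraries correlated at 0.164 over tested regions and 0.013 over members. Leaving out a library gave from 0 to 227 calls. It was 227 without KO sample 1 (6187 of all 178928 tested regions were called lower) and 74 without KO sample 2 (1498 of 178965), where the spread comes from the WT pair alone and the lone KO library is assumed to vary like it. Without either WT library it was 0, with 99 and 95 members at unadjusted p under 0.05.

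Over the 20 named regions the median log2 fold change was -2.03, and from -2.40 to -1.77 when a library was left out, the extremes without KO samples 1 and 2. None of 160 alternative values changed sign, which the rule makes certain, and 40 passed the threshold, of which 5 were with the block and 35 without a KO library. The median log2 ratio over the members, -1.24, became -1.51 with a pseudocount of 0.1 CPM and -1.03 with 1 CPM. The share of members with another member nearby, 2.91% within 10 kb, was 8.34% within 50 kb, 8.02% at 1.5-fold, 0% at 3-fold (0 of 92 members) and 1.06% with 50 counts or more (2 of 188). Of the 755 members, 4 had 3 counts or fewer in KO sample 1, 59 in KO sample 2 and 2 in both, and the size of the decrease is poorly fixed in these.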
